A study of Mus musculus with 8 samples.

Results

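The Toll-like receptors Tlr1, Tlr2, Tlr3, Tlr4 and Tlr7 and their adaptor Myd88 were followed in the blood of mice under chemical hypoxia by cobalt chloride (CoCl2). They were chosen by a fixed list of probe set IDs of the Affymetrix Mouse430 2.0 array, not by a cut on their values. Earlier results of these data were known when the list was chosen. All 7 listed probe sets were found among 45037 in the value table, besides control probe sets, and they stand for 6 genes, Tlr4 having 2. The gene of each probe set was given with that list, since the deposited files do not pair IDs with genes. In the CoCl2 group, 4 arrays came from mice that received 200 ng CoCl2 per 100 ml per day for 15 days, a chemical way to mimic hypoxia because cobalt stabilises hypoxia-inducible factors. The control group also held 4 arrays. Its sample titles speak of a chamber, while the treatment text of the CoCl2 samples places both groups under room conditions. RNA of both groups was isolated from 100 µl of blood drawn from the vena cava. The labels give neither strain, sex nor age, do not say how CoCl2 was taken up, and do not state that separate animals were used for separate arrays. The p-values therefore cover the spread among these 8 arrays, which may be technical.

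Toll-like receptors are membrane proteins of innate immune cells that bind molecules of microbes. Tlr1, Tlr2 and Tlr4 sit on the cell surface and bind bacterial lipoproteins or lipopolysaccharide, whereas Tlr3 and Tlr7 sit in endosomes and bind RNA. Most of them signal through Myd88, which assembles Irak kinases and leads to NF-kB activation. Tlr3 is the exception and uses the adaptor Ticam1, and Tlr4 uses both. In blood, neutrophils and monocytes are the main carriers of Tlr2 and Tlr4, while Tlr7 is known from plasmacytoid dendritic cells, B cells and monocytes.

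Transcripts of Myd88, Tlr7, Tlr2 and Tlr1 were higher in CoCl2 blood, whereas the probe sets of Tlr4 and Tlr3 did not pass the test. The calls of Tlr1 and Tlr7 each held in only 3 of 8 fits without 1 array. The log2 difference of Tlr1, 0.65, was close to that of Tlr4 1418162_at, 0.62, so passing or not does not set these 2 apart. The rise was 4.05-fold for Myd88, 2.87-fold for Tlr7, 1.93-fold for Tlr2 and 1.57-fold for Tlr1. The Tlr2 fold is set against control values near the array median, where the files give no detection call, so it may understate the change of the transcript. In limma, at a Benjamini-Hochberg adjusted p under 0.05, 4 of the 6 probe sets that passed an expression filter (a mean log2 value of at least 2.90 over all arrays) were higher with CoCl2 and 0 lower. Of all 22518 tested probe sets, 28.6% were higher and 16.5% lower, 45.1% in all. Tlr2 passed the filter only through its CoCl2 values and Tlr3 only through its control values. The second Tlr4 probe set, 1418163_at, did not pass it, so the count over the filtered probe sets is a description. Without a filter, 2 of all 7 probe sets were higher in limma, Myd88 and Tlr2, and 0 lower, against 10.8% higher of 45037 probe sets. At an unadjusted p under 0.05, none was lower with the filter and 1 without it, that of Tlr3. The groups did not overlap for 2 of the 7, Myd88 and Tlr2, while 34% of all 45037 probe sets and 45.5% of the tested ones showed no overlap. Ranked within each array, the same 2 probe sets showed no overlap, as did 30.9% of all probe sets.

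**Figure D1:**
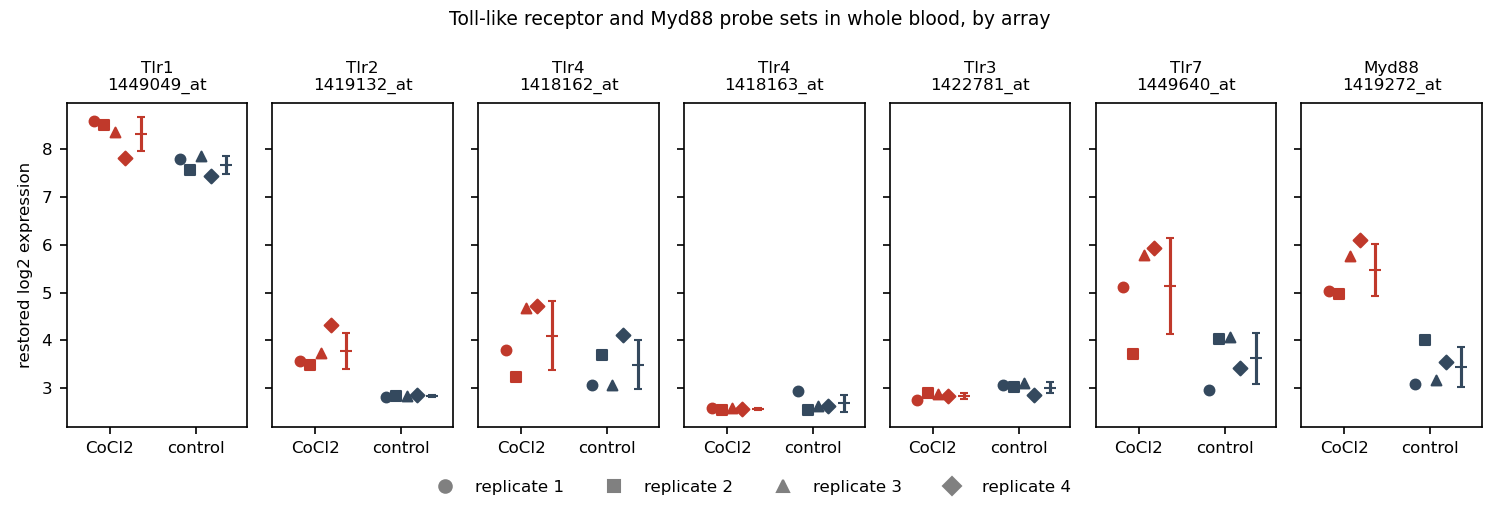
Restored log2 expression (vertical axis) of each probe set on each of the 4 CoCl2 arrays (red, left) and 4 control arrays (dark, right), with marker shapes for the replicate number and bars for the mean and SD of 4 arrays. The groups do not overlap for Myd88 and Tlr2, with Myd88 at 4.97 to 6.10 on CoCl2 arrays and 3.08 to 4.00 on control arrays.

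The bacterial RNAs bioB and bioC, added at hybridisation, averaged 11.34 ± 0.13 on CoCl2 arrays and 13.16 ± 0.22 on control arrays (log2, SD, n = 4 each; two-sided exact permutation p = 0.0286, the smallest that 4 against 4 arrays can give). Control probe sets of beta-actin averaged 12.32 ± 0.09 on CoCl2 arrays and 11.67 ± 0.08 on control arrays (SD, n = 4 each). The 3' minus 5' difference of beta-actin, a measure of RNA integrity, was 1.61 to 1.79 with CoCl2 and 1.75 to 1.99 in controls. The same difference of Gapdh went the other way, at 1.55 to 2.02 with CoCl2 and 1.38 to 1.62 in controls, and both overlapped. No batch is given, and the sample numbers in the titles of the groups do not interleave, so batch and treatment cannot be told apart. In whole blood, a change in the number of cells of a type and a change in RNA per cell cannot be told apart either. Markers of blood cell types could not be set beside the receptors without gene names, so the part of cell composition in the differences was not tested, and the labelled tissue could not be checked against its markers.

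Promoter sequence was available for 4 of the 6 genes. For 3 of them, the 250 bases before the start site in RefSeq (GRCm38.p6) are printed because Tlr2 and Myd88 had separated groups and Tlr3 did not pass the test. All 3 genes lie on the minus strand and are written 5′ to 3′ in gene direction. Capitals mark matches, on either strand, to the NF-kB consensus, to the interferon response element GAAANNGAA, to the hypoxia-response cores ACGTG and GCGTG, to the PU.1 core GAGGAA or to the AP-1 site TGANTCA.
Tlr2, chr3:83841609-83841858: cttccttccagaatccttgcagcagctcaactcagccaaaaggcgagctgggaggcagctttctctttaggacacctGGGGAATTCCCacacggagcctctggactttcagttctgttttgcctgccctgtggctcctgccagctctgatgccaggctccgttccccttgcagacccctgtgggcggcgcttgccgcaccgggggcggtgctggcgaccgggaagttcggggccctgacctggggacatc
Myd88, chr9:119340019-119340268: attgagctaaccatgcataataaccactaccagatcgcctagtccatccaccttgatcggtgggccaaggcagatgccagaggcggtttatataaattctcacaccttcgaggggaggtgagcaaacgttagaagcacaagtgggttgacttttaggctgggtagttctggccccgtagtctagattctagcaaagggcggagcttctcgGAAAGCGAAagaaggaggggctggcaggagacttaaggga
Tlr3, chr8:45410381-45410630: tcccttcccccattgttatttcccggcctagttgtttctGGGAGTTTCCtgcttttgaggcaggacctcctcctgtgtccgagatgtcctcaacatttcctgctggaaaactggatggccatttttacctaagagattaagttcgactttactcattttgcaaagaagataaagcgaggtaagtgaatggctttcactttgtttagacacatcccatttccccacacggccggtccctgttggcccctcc
The NF-kB consensus matched in Tlr2 from 173 bases before the start, in overlapping positions on both strands, and in Tlr3 from 211 bases before it, while 3.9% of 32851 windows of the same length hold a match. In Myd88 the interferon response element matched 40 bases before the start, and 7.13% of all windows hold it. ACGTG was in none of these 3 windows but in 1 of the 2 Tlr1 windows, on both strands as part of the same palindrome, and 16.6% of all windows hold it. GCGTG (28.2% of all windows) and the AP-1 site (6.75%) had no match in any of the 5 windows. The PU.1 core (23.3% of all windows) matched in the other Tlr1 window, 23 bases before the start. A match is a run of letters and no measured site, and genes that did and did not pass the test both hold the NF-kB consensus.

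Among the surface receptors, Tlr2 (1419132_at), which pairs with Tlr1 to bind bacterial lipoproteins, had log2 values of 3.56, 3.49, 3.74 and 4.32 on the CoCl2 arrays, against 2.82, 2.83, 2.83 and 2.85 on the control arrays. Every CoCl2 array lay above every control array, with a gap of 0.64 between the groups. The means were 3.78 ± 0.37 with CoCl2 and 2.83 ± 0.02 in controls (SD, n = 4 each), so the log2 gain was 0.95 with an SE of 0.19 (adjusted p = 0.00412 in limma). The control mean lay under the filter's minimum of 2.90, so this probe set was tested only because its CoCl2 values were high. In the fit over all 45037 probe sets, which does not depend on the filter, its adjusted p in limma was 0.0123.

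Tlr1 (1449049_at), the lipoprotein receptor that acts with Tlr2, stood at 8.59, 8.50, 8.37 and 7.81 with CoCl2 and at 7.79, 7.57, 7.86 and 7.45 in controls. The groups overlapped, because CoCl2 replicate 4 lay below control replicate 3. Its means of 8.32 ± 0.35 with CoCl2 and 7.67 ± 0.19 in controls (SD, n = 4 each) differed by 0.65 (SE 0.20, limma adjusted p = 0.0254). Of 1086 tested probe sets within 0.5 of its mean level, 33.7% were higher with CoCl2. The call did not hold without CoCl2 replicate 1, 2 or 3 (limma adjusted p = 0.0659, 0.0653 and 0.0615) or without control replicate 2 or 4 (0.0592 and 0.0535), at differences of 0.56 to 0.63. Quantile normalization gave a difference of 0.38 (limma adjusted p = 0.158).

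Tlr4, the receptor for bacterial lipopolysaccharide, had 2 probe sets, of which neither passed the test. Probe set 1418162_at stood at 3.79, 3.23, 4.67 and 4.71 on CoCl2 arrays and at 3.06, 3.70, 3.07 and 4.11 on control arrays. The groups overlapped, with CoCl2 replicate 2 below 2 control arrays and control replicate 4 above 2 CoCl2 arrays. Its log2 difference of 0.62 (95% confidence interval -0.24 to 1.47, limma adjusted p = 0.204) therefore includes both no change and a 2.77-fold rise. Probe set 1418163_at stood at 2.59, 2.54, 2.58 and 2.56 with CoCl2 and at 2.94, 2.55, 2.62 and 2.62 in controls. It differed by -0.11 (95% confidence interval -0.32 to 0.09, limma adjusted p = 0.36 without the filter) and had a mean percentile among all probe sets of 30.8 on CoCl2 arrays and 36.1 on control arrays. The log2 ratio of the first over the second on the same array was 0.70 to 2.15 with CoCl2 and 0.12 to 1.49 in controls, an overlap.

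Of the endosomal receptors, Tlr7 (1449640_at), a receptor for single-stranded RNA, stood at 5.12, 3.72, 5.78 and 5.93 with CoCl2, against 2.95, 4.03, 4.07 and 3.42 in controls. On CoCl2 replicates 1, 3 and 4 it lay above all controls, but CoCl2 replicate 2 lay below 2 of them. Its means were 5.14 ± 1.01 with CoCl2 and 3.62 ± 0.54 in controls (SD, n = 4 each), and the log2 gain of 1.52 had an SE of 0.48 (adjusted p = 0.0297 in limma). The 95% confidence interval of the fold change ran from 1.35 to 6.07. The call was lost without CoCl2 replicate 1, 3 or 4 (limma adjusted p = 0.0625, 0.0812 and 0.0721) and without control replicate 1 or 4 (0.0811 and 0.0599), at differences of 1.25 to 1.52. Of 4338 tested probe sets near its level, 35.1% were higher with CoCl2.

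Tlr3 (1422781_at), the receptor for double-stranded RNA that signals without Myd88, stood at 2.76, 2.90, 2.88 and 2.84 with CoCl2 and at 3.07, 3.02, 3.10 and 2.86 in controls. The CoCl2 arrays lay below all controls but control replicate 4, which fell among them. Its log2 difference was -0.17 (95% confidence interval -0.44 to 0.10, limma adjusted p = 0.268). Its mean percentile within an array was 52.2 with CoCl2 and 55.5 in controls, close to the filter's minimum.

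Myd88 (1419272_at), the adaptor that links most of these receptors to Irak kinases, stood at 5.04, 4.97, 5.76 and 6.10 with CoCl2, against 3.08, 4.00, 3.16 and 3.55 in controls. All CoCl2 arrays lay above all control arrays, by at least 0.97. The means were 5.47 ± 0.55 with CoCl2 and 3.45 ± 0.42 in controls (SD, n = 4 each), so the log2 gain was 2.02 with an SE of 0.30 (adjusted p = 0.0011 in limma), and the 95% confidence interval of the fold change ran from 2.52 to 6.53. Of 4195 tested probe sets near its level, 36.2% were higher with CoCl2, and the Myd88 difference exceeded that of 97.6% of them. Without any single array its difference stayed between 1.81 and 2.20 and its highest limma adjusted p was 0.00496. Of the 7 probe sets, Myd88 alone also passed the treat test of limma, which asks for a change beyond 1.5-fold (adjusted p = 0.00866) and which 7.27% of all tested probe sets passed as higher.

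**Figure D2:**
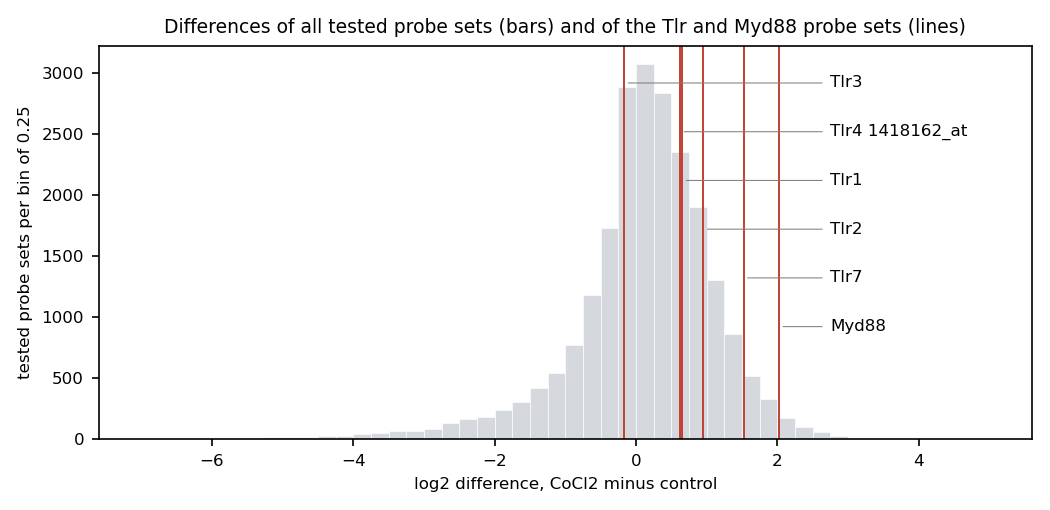
Number of tested probe sets (vertical axis) by log2 difference, CoCl2 minus control (horizontal axis, bins of 0.25), with red lines at the 6 tested Toll-like receptor and Myd88 probe sets. Tlr3 at -0.17 lies left of the median of 0.19, Tlr4 1418162_at and Tlr1 lie at 0.62 and 0.65, Tlr2 at 0.95, Tlr7 at 1.52 and Myd88 at 2.02, above 98.4% of all tested probe sets.

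Because the arrays differed in their added controls, the differences were set side by side under other scalings. The median difference of all tested probe sets was 0.19 as restored, 0.10 after quantile normalization, 0.05 after median centring and 2.00 with arrays centred on bioB and bioC. Of all tested probe sets, 6438 were higher and 3721 lower with CoCl2 as restored, while the split was 5082 higher and 4710 lower after median centring and 20500 higher and 518 lower with the bacterial centring. Myd88, Tlr7 and Tlr2 had the 3 highest differences under each of them. Myd88 differed by 1.91, 1.88 and 3.84 under the 3 alternatives, Tlr7 by 1.40, 1.38 and 3.34, and Tlr2 by 0.97, 0.81 and 2.76. Tlr3 differed by -0.09, -0.31 and 1.65 and Tlr4 1418163_at by -0.08, -0.25 and 1.70, so that centring on the bacterial controls turned the sign of both. Under that centring all 6 tested probe sets passed the threshold as higher, Tlr4 1418162_at among them at 2.44, but the values of Tlr3 and of 1418163_at then lay below the median shift of 2.00.

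**Figure D3:**
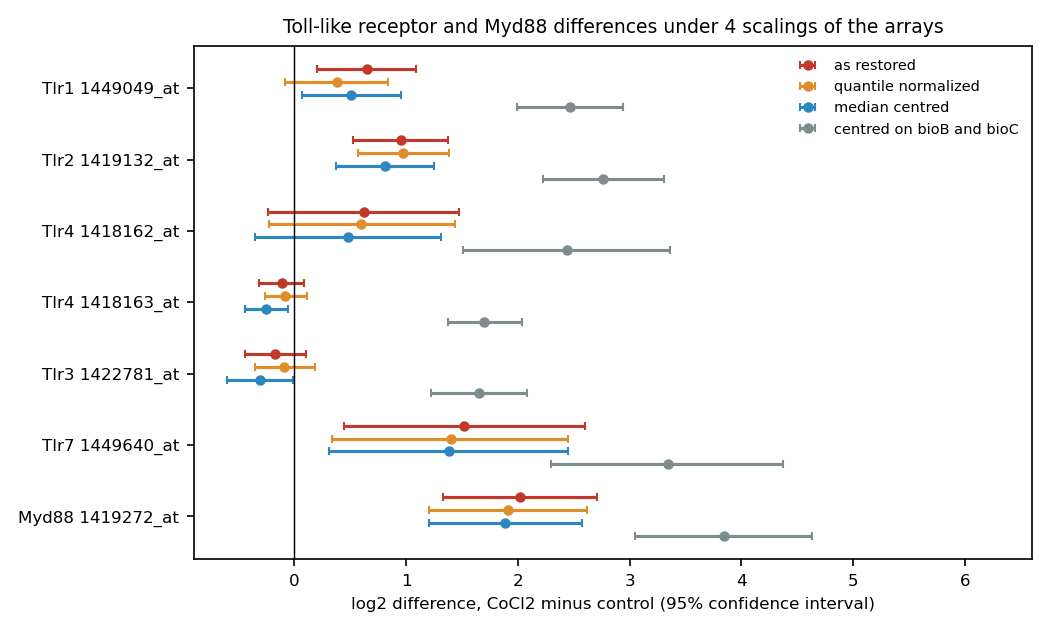
Log2 difference, CoCl2 minus control, with its 95% confidence interval (horizontal axis) for each probe set as restored, after quantile normalization, after median centring and with arrays centred on bioB and bioC. The first 3 scalings lie closer to each other than to the fourth, which moves every probe set to the right, with Tlr3 at 1.65. Under the first 3, Tlr1 lies at 0.65, 0.38 and 0.51.

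Ratios of 2 probe sets on the same array do not depend on a shift of the whole array. The log2 ratio of Tlr4 1418162_at over Myd88 was -1.26, -1.74, -1.09 and -1.38 on CoCl2 arrays and -0.01, -0.30, -0.10 and 0.56 on control arrays. It was lower on every CoCl2 array, with a mean difference of -1.40. Tlr2 over Myd88 was also lower on all CoCl2 arrays, at -1.69 ± 0.26 against -0.62 ± 0.42 in controls (SD, n = 4 each). Tlr2 over Tlr4 1418162_at overlapped, at -0.32 ± 0.49 with CoCl2 and -0.65 ± 0.50 in controls (SD, n = 4 each). Tlr2 over Tlr1, the pair that binds lipoproteins together, overlapped between the groups, at -5.03 to -3.49 with CoCl2 and -5.03 to -4.60 in controls. Tlr7 over Tlr3 also overlapped, with 0.82 on CoCl2 replicate 2, below 1.01 and 0.97 on 2 control arrays. The Myd88 difference exceeded that of 98.4% of all tested probe sets, so most of them have a lower mean ratio over Myd88 with CoCl2. The share of all probe sets lower over Myd88 without overlap was not computed. A ratio of 2 probe sets shows unequal change, not which of the 2 changed.

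**Figure D4:**
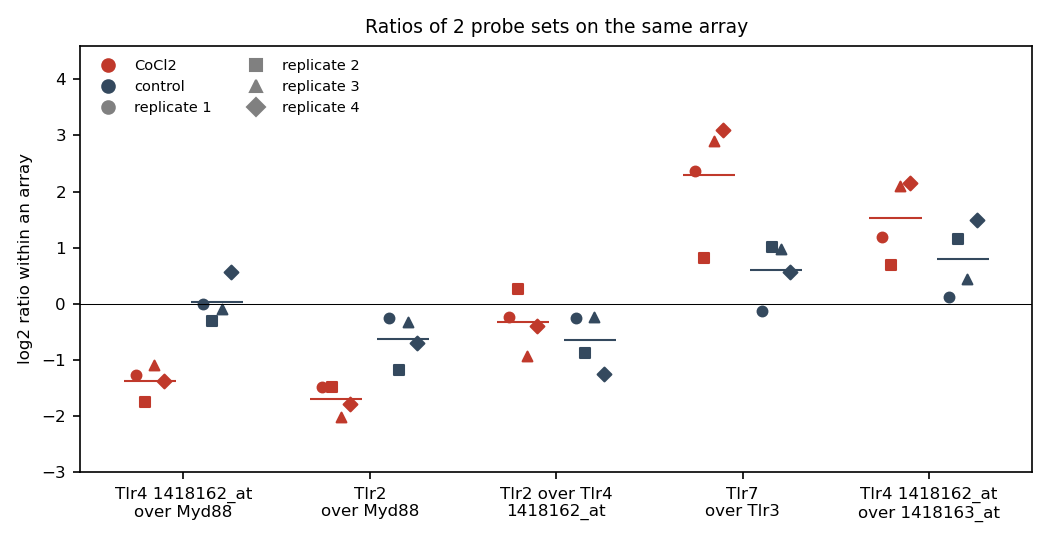
Log2 ratio of 2 probe sets on the same array (vertical axis) for 5 pairs, with CoCl2 arrays in red on the left, control arrays dark on the right, and the mean of 4 arrays as a line. Tlr4 1418162_at over Myd88 and Tlr2 over Myd88 are lower on every CoCl2 array, and the other 3 pairs overlap.

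Relative to the beta-actin control probe sets of the same array, which were themselves 0.65 higher with CoCl2, Myd88 was the only probe set of the 7 that was higher without overlap, as were 3.25% of all 45037 probe sets. Its log2 ratio to beta-actin was -6.85 ± 0.59 with CoCl2 and -8.22 ± 0.35 in controls (SD, n = 4 each). On this scale Tlr2 differed by 0.30 and its groups overlapped, Tlr1 and Tlr4 1418162_at differed by less than the spread between arrays (-0.00 and -0.03), and Tlr7 differed by 0.87 with overlap. Tlr3 and Tlr4 1418163_at had differences of -0.82 and -0.76 without overlap, as 69.3% of all probe sets were lower without overlap on this scale, and their own log2 differences were -0.17 and -0.11.

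The CoCl2 arrays were not alike. Tlr2, Tlr4 1418162_at, Tlr7 and Myd88 ranked the 4 CoCl2 arrays in the same order, with replicate 2 lowest, then replicates 1, 3 and 4. For Tlr1 replicate 4 was lowest, followed by replicates 3, 2 and 1. Tlr3 had the order 1, 4, 3 and 2 from low to high, and Tlr4 1418163_at the order 2, 4, 3 and 1. How many of all probe sets share any of these orders was not counted, so a general difference between the arrays cannot be told apart. In controls Tlr2, Tlr4 1418162_at, Tlr7 and Myd88 did not all share an order, although control replicate 1 was lowest in each of them. With 4 arrays per group, a relation between the receptors within a group could not be tested.

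A SAM comparison, given as the authors' deposited table, lists 6 of the 7 probe sets, all but that of Tlr3. In the authors' deposited table, 5 of them are higher at a q-value under 5%, as are 47.6% of all its probe sets that are not controls. The authors' deposited table gives log2 differences of 1.82 for Myd88, 1.26 for Tlr7, 1.07 for Tlr2 and 0.58 for Tlr1. For Tlr4 1418162_at the authors' deposited table gives 0.88 with a q-value of 1.82%, past the 5% limit, whereas the limma fit did not pass it. For 1418163_at the authors' deposited table gives 0.09 with a q-value of 7.57%, opposite in sign to the restored values. Its numerators are not those of the restored table, and which arrays entered it is not given in the sources used here.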

How the data were processed

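Per the labels' protocols, RNA went through the one-cycle biotin labelling of Affymetrix. GCRMA and Partek are named in the submitters' processing notes, without versions. As deposited, nearly all cells of the value table are scores that have lost their decimal point. Of 360808 cells, 415 were read as spreadsheet day numbers and 13 were taken as they stood. Log2 values were restored from the digits alone, and all 56 cells of the 7 probe sets could be read in only 1 way, with 1 digit before the point. Among all cells 0.395% were ambiguous and took the reading nearest to a clear array of the same probe set. That the values are log2 is inferred from their range, 1.65 to 16.56. Both a lower and an upper bound were part of the restoration, so this range does not test the scale. The design had assumed log2 values as deposited, and the test was kept.

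The authors' SAM table holds, per the file headers, a score, a numerator (a log2 difference as deposited), a denominator, a ratio (the fold change) and a deposited q-value in percent.

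Of 45037 probe sets that are not controls, those in the upper 50% of mean log2 values were tested with limma 3.58.1 in R 4.3.3 (lmFit, eBayes, two-sided, Benjamini-Hochberg, CoCl2 minus control). A probe set under that filter was taken from the fit without it. The restoration and the fit were tested on simulated data. Controls were compared by exact permutation. Array numbers limit the precision, at 4 arrays per group.

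The 7 probe sets, the lists and the tests were chosen with earlier results of these data known. The rule was to name all 7. The planned lists of other pathway genes and of cell type markers, and the genes most alike in pattern, were not analysed here, because no table pairs probe sets with genes. No column of values per array was left out.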

Additional observations from a re-analysis of the deposited data

Results flagged for a closer look

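Of 22 groups of 4 values examined (the 7 probe sets, the added controls and the 3' minus 5' differences, by treatment group), 1 held an array far from the others, and chance gives about 1 in 20. The 3' minus 5' difference of Gapdh was 1.38 on control replicate 3, against 1.59 to 1.62 on the remaining control arrays. No array was set apart in this way for a Toll-like receptor or Myd88.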

How the results depend on the processing

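Myd88 kept its direction and its side of the threshold in every alternative that gives a test. Tlr2 did so in all of those but the treat test (0.95). The filtered limma fits of Tlr2 all used the filter over all arrays, which it passed only through its CoCl2 values. Of the limma fits, only that without a filter (adjusted p = 0.0123) does not depend on this for Tlr2. Tlr1 lost the call without a filter and in the treat test (0.65), after quantile normalization (0.38) and after median centring (0.51), and Tlr7 without a filter and in the treat test (1.52). The treat test asks for a change beyond 1.5-fold. Without the filter the test set is wider and the spread is estimated anew, with a Tlr7 SE of 0.53 against 0.48. The Tlr1 SE was 0.19 without the filter against 0.20 with it, and its unadjusted limma p was 0.0105 against 0.0092. The cause of the lost calls was not tested. Tlr4 1418162_at passed when centred on bioB and bioC (2.44) and in the authors' table (0.88). Tlr4 1418163_at, under the filter, stood at -0.25 after centring on the median of the tested probe sets. Its limma adjusted p there, from the fit over all probe sets, was 0.0316. The share of all probe sets lower in that fit was not counted, and 0 of the tested members passed as lower after median centring. As restored, its difference was -0.03 without control replicate 1. It turned to 1.70 when centred on bioB and bioC and stood at 0.09 in the authors' table. Tlr3 turned to 1.65 when centred on bioB and bioC. Probe sets past the threshold as higher numbered 2 without a filter (10.8% of all probe sets), 1 in the treat test (7.27%) and 2 to 4 without 1 array at a time (22.5% to 28.5%), with 2 without CoCl2 replicate 1, CoCl2 replicate 3 or control replicate 4. Without 1 array at a time, Tlr1 differed by 0.56 to 0.82 and Tlr7 by 1.25 to 1.99. With the replicate block the differences were the same by construction (Myd88 2.02), and 4 stayed past the threshold as higher. Of all 22518 tested probe sets, 5779 passed as higher with the block, against 6438 without it. Same-numbered arrays did not deviate together (r from -0.038 to 0.021), and no label says that the numbers pair them. Under the stricter filter, which kept 11259 probe sets, Tlr2, Tlr3 and both Tlr4 probe sets have no value. Its minimum mean log2 value was 4.28, above the control means of Myd88 (3.45) and Tlr7 (3.62). These 2 probe sets passed it only through their CoCl2 values, so their calls under it are a description. Over all probe sets, 3084 passed the treat test and 21018 passed when centred on bioB and bioC. The alternatives for other pathway genes were not run.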

Other observations

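Ranks within an array, added after seeing the data, do not depend on any scaling that keeps the order of the probe sets. Myd88 lay at percentiles of 79.6 to 86.7 among the probe sets of its array with CoCl2 and at 57.5 to 72.5 in controls. Tlr2 lay at percentiles of 66.9 to 74.6 with CoCl2 and at 46.8 to 50.4 in controls. For these 2 of 7 probe sets the groups did not overlap in rank, as for 30.9% of all 45037 probe sets. Tlr1 lay at percentiles of 93.9 to 95.8 with CoCl2 and at 93.5 to 94.9 in controls, an overlap that leaves a mean shift of 0.95 percentile points. Tlr7 ran over percentiles of 69.2 to 85.7 with CoCl2 and over 53.5 to 73.5 in controls.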
